A study of Mus musculus with 9 samples.

Results

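Elastic fibre and crosslinking genes were followed in mouse hindlimb skeletal muscle on postnatal days 2, 7 and 14, written P2, P7 and P14, on 9 arrays in all, 3 per age. The group holds 10 listed genes among 22180 measured genes. Of the 10, 7 had a probe set that names them alone and are described here, namely the fibrillin Fbn2, elastin (Eln), the microfibril protein Mfap2, the fibulins Fbln1 and Fbln5, and the crosslinking enzymes Lox and Loxl1. The 2 probe sets of Loxl2 also carry a second gene symbol, and no probe set is listed for Fbn1 or Efemp2, so these 3 genes were not analysed here. All samples are labelled as of a mixed strain, and the labelled difference between groups is age, with no treatment named. The 3 samples of an age are called biological replicates, and the labels give neither the sex nor the number of the animals behind each. Values are log2 intensities, in which a difference of 1 is a 2-fold difference, and the level of a probe set is not compared with that of another.

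An elastic fibre has a core of crosslinked elastin laid on a scaffold of microfibrils. Microfibrils are built from fibrillins, to which small glycoproteins such as Mfap2 bind, and fibulins bring elastin monomers and crosslinking enzymes together on them. Lysyl oxidases use copper to oxidise lysines of elastin and collagen, which then join neighbouring chains. In skeletal muscle these proteins lie in the connective tissue around fibres and fascicles and in vessel walls, and they are made mainly by fibroblasts and smooth muscle cells. Fibrillin-2 is known as the fibrillin of embryonic and early postnatal tissue.

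From P2 to P14 all 7 measured genes had a lower mean, and all 3 P14 arrays lay below all 3 P2 arrays for each of the 7. The same is true of 12.6% of all genes. Of the 7, Fbn2 (7.85-fold lower) and Eln (2.08-fold lower) fell by limma's test at an adjusted p under 0.05, against 4.40% of all genes called lower and 6.63% called higher. The other 5 had log2 differences of -0.77 to -0.51 and were not called, although all 7 had an unadjusted p under 0.05. The median of the 7 was -0.62, beside 0.01 for all genes. This count depended on scaling and filtering. It was 4 with arrays centred on their medians or with a trended and robust prior, 5 without dim genes and 6 with cyclic loess scaling, and 1 without P14 replicate 1.

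**Figure D1:**
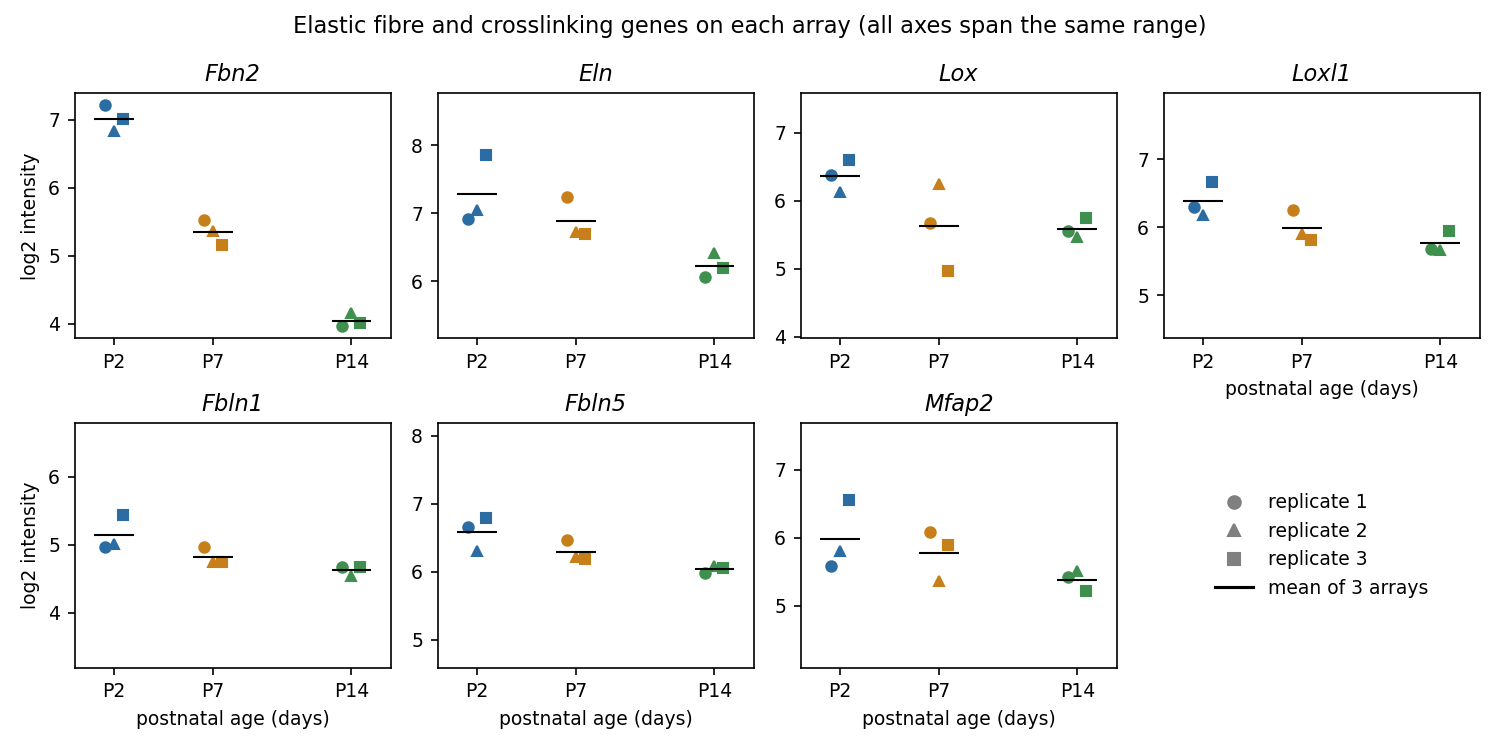
Log2 intensity of the 7 measured genes on each array against postnatal age, with 1 symbol per replicate and a line at the mean of 3 arrays; every vertical axis spans the same range. Fbn2 steps down at each age with no overlap between ages, and the other genes drift lower with overlapping P2 and P7 arrays.

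Fbn2 had the steepest course of the group. Its log2 values were 7.21, 6.83 and 7.01 on the P2 arrays, 5.52, 5.36 and 5.16 on the P7 arrays, and 3.96, 4.16 and 4.01 on the P14 arrays. The 3 ages did not overlap, and the spread within an age (SD 0.19, 0.18 and 0.11, n = 3) was a small part of the step between ages. The log2 change was -1.67 ± 0.17 (SE; 3.18-fold lower; adjusted p = 6.97e-04) from P2 to P7 and -1.30 ± 0.17 (2.47-fold lower; adjusted p = 6.35e-04) from P7 to P14. Over the whole span it was -2.97 ± 0.17 (adjusted p = 2.60e-07). Ranked by the size of a negative change among the 22180 genes, Fbn2 was at position 7 from P2 to P7, at position 83 from P7 to P14 and at position 13 from P2 to P14.

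The fall of Fbn2 was called in each of the 17 alternatives for each pair of ages, with log2 changes of -3.07 to -2.87 for the whole span. Its P14 mean of 4.04 ± 0.11 (SD, n = 3) stayed above the background level of 3.23, which is the 95th percentile of 1427 smell, taste and related receptor genes that muscle should not express. The step of the second interval (7 days) less that of the first (5 days) was 0.37 ± 0.30. Its 95% confidence interval was -0.27 to 1.01 (limma adjusted p = 0.809), so a difference in size between the 2 steps was not detected. The contrast compares whole steps over unequal times, and the change per day was not tested.

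Of the 7 genes, Fbn2 alone was called within a single interval. From P2 to P7 it was 1 of the 7 genes, against 0.144% of all genes called lower and 0.185% called higher. It was also the 1 gene of the 7 with all P7 arrays below all P2 arrays (7.90% of all genes). From P7 to P14 it was again 1 of the 7, against 0.703% of all genes called lower and 1.72% called higher, while 4 of the 7 had all P14 arrays below all P7 arrays (9.13% of all genes), namely Fbn2, Eln, Fbln1 and Fbln5. The mean of each of the 7 genes was lower at P7 than at P2 and lower again at P14, as for 22.4% of all genes. For Lox from P7 to P14 and for Mfap2 from P2 to P7 that order rested on differences of -0.04 and -0.20, and both signs turned when single arrays were left out. A test for any change over the 3 ages called Fbn2 and Eln (8.24% of all genes called). Its count was 1, Fbn2, with the replicate number as a block (for Eln the call was lost) and with any single P14 array left out, and 4 with cyclic loess scaling.

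The difference between the 2 intervals was called for 0 of the 7 genes by limma, with 0 at an unadjusted p under 0.05 and 0.194% of all genes called. Its intervals were wide. For Eln the 95% confidence interval ran from -1.17 to 0.62, and for Lox from -0.27 to 1.66.

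**Figure D2:**
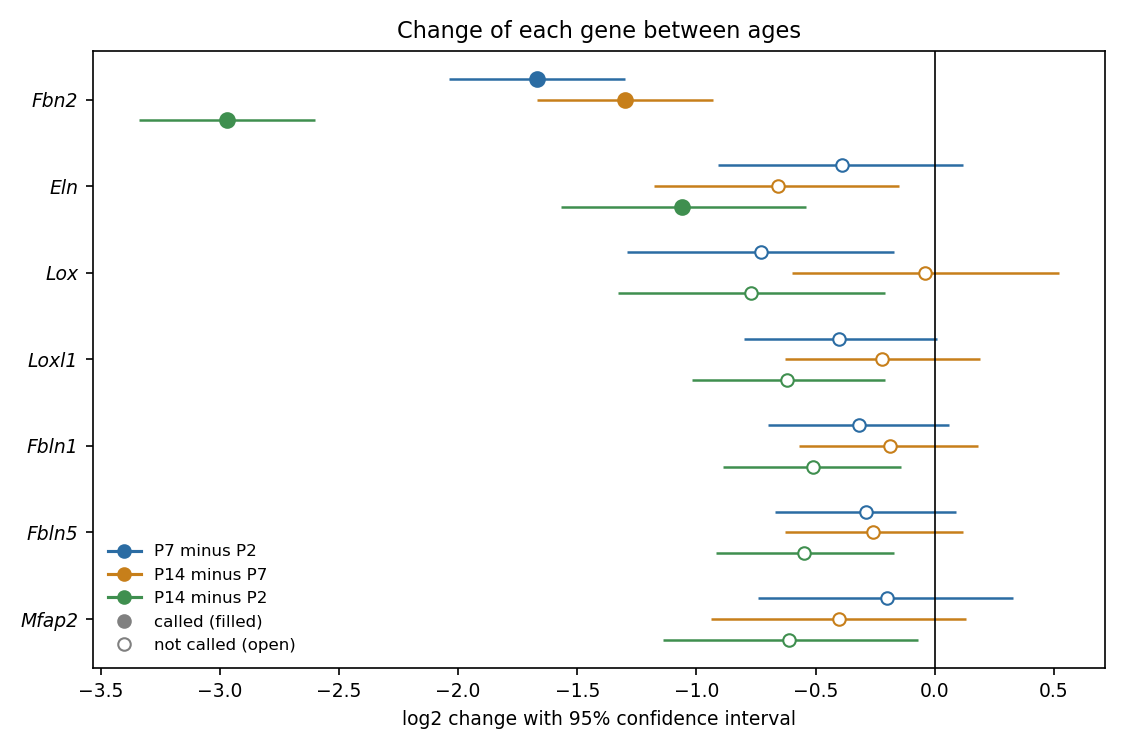
Log2 change of each gene for the 3 pairs of ages, with 95% confidence intervals as lines and filled points for called changes. Fbn2 is filled for all 3 pairs and Eln for P14 minus P2 only; the intervals of all 7 genes for P14 minus P2 lie below 0.

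Eln encodes tropoelastin, the monomer of the fibre core. It was measured at 6.92, 7.05 and 7.86 on the P2 arrays, 7.24, 6.73 and 6.69 on the P7 arrays and 6.06, 6.41 and 6.19 on the P14 arrays. P2 replicate 3 was the highest of all 9 arrays, P2 and P7 overlapped, and the P14 arrays lay below all others. The log2 change from P2 to P14 was -1.06 ± 0.24 (SE; adjusted p = 0.0110), made up of -0.39 ± 0.24 (adjusted p = 0.529) in the first interval and -0.66 ± 0.24 (adjusted p = 0.190) in the second, neither called. The first of these differences was -0.10 without P2 replicate 3. For the whole span the call was lost without P14 replicate 1 (-0.98, adjusted p = 0.0556), and without P2 replicate 3 the change was smaller and still called (-0.76, adjusted p = 0.0317). The call held in 16 of 17 alternatives.

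Mfap2, which binds fibrillin microfibrils, was at 5.59, 5.81 and 6.56 on the P2 arrays, 6.09, 5.36 and 5.89 on the P7 arrays and 5.42, 5.51 and 5.21 on the P14 arrays. The P2 and P7 arrays overlapped, and P2 replicate 3 stood highest. Its change from P2 to P14 was -0.61 ± 0.25, with a 95% confidence interval of -1.14 to -0.07 (adjusted p = 0.145). It was -0.32 without P2 replicate 3, and 0 of 17 alternatives called it, with adjusted p of 0.0634 to 0.410.

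The within-array difference of Eln less Mfap2, which is unaffected by a shift of a whole array, asked whether the transcripts of Eln and Mfap2 moved unequally. It was 1.29 ± 0.05 (SD, n = 3) at P2, 1.10 ± 0.29 at P7 and 0.84 ± 0.18 at P14. An exact permutation test of the F ratio over the 9 arrays gave p = 0.104 (0.207 adjusted over the 2 pairs that could be run), where the smallest p the design allows is 0.00357. An unequal change of Eln and Mfap2 was not shown. The fibrillin Fbn2, which changed by -2.97 from P2 to P14 against -1.06 for Eln, was not paired with Eln. The planned pairs of Fbn2 with Fbn1 and of Efemp2 with Fbln5 could not be run, since 1 gene of each was not measured.

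The fibulins link elastin to microfibrils. Fbln5, which binds elastin and brings Loxl1 to it, was at 6.65, 6.30 and 6.79 at P2, 6.47, 6.22 and 6.18 at P7 and 5.98, 6.08 and 6.05 at P14. The P14 arrays lay close together (SD 0.05) and below every earlier array. The change from P2 to P14 was -0.55 ± 0.18 and missed the threshold (adjusted p = 0.0616), while 6 of 17 alternatives called it.

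Fbln1, a fibulin of elastic fibres and basement membranes, was at 4.97, 5.01 and 5.44 at P2, 4.97, 4.74 and 4.74 at P7 and 4.67, 4.54 and 4.67 at P14. P2 replicate 3 was again the highest array. The change was -0.51 ± 0.18 (adjusted p = 0.0795), -0.36 without P2 replicate 3, and cyclic loess alone of the 17 alternatives called it (adjusted p = 0.0259).

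Promoter sequence was given for only 3 of the 7 measured genes, Fbln5, Fbln1 and Mfap2, and these are shown for that reason. All 7 genes had every P14 array below every P2 array, and none of these 3 was called from P2 to P14. The 250 bases before the outermost start of each gene in RefSeq (build GRCm38.p6) are printed 5′ to 3′ on the strand of the gene. Capitals mark any match on either strand to 1 of 4 motifs, and no matches overlap in the 3 windows. The first motif is the GC box, spelled GGGCGG and found in 32.7% of the 32851 windows of that length in the table. The TATA box, spelled TATAAA, is in 12.4% of them. The AP-1 motif, spelled TGANTCA, is in 6.7%, and the E-box, spelled CACGTG, is in 6.0%.
Fbln5, chr12:101819120-101819369, minus strand: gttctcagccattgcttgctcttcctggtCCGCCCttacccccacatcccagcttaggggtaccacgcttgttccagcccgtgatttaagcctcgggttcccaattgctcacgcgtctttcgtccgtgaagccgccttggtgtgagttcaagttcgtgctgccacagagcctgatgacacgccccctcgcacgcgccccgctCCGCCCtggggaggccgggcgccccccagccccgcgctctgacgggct
Fbln1, chr15:85205699-85205948, plus strand: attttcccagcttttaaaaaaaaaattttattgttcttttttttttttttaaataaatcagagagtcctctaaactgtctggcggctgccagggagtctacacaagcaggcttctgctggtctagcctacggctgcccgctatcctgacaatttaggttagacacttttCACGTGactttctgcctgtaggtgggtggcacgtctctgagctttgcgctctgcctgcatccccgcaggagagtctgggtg
Mfap2, chr4:141010174-141010423, plus strand: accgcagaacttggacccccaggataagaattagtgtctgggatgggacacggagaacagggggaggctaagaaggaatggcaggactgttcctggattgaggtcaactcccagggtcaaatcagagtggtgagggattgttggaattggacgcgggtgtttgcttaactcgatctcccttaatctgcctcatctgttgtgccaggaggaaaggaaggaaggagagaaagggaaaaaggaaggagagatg

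The 3 windows share none of these motifs. Fbln5 has 2 GC boxes, Fbln1 has 1 E-box, and Mfap2 has none of the 4. Their GC content was 65.2%, 46.4% and 51.2%, beside a median of 52.4% over all windows. Each gene has a second start in the table. The window of the second Mfap2 start, 257 bases downstream, holds 2 GC boxes, that of Fbln1 holds 1 GC box and the same E-box, and that of Fbln5 holds none of the 4. A match is a description of letters and not evidence of a bound site.

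Lox and Loxl1 are lysyl oxidases. Lox crosslinks both collagen and elastin, and Loxl1 is known for its part in elastin renewal. Lox was at 6.37, 6.12 and 6.59 on the P2 arrays, 5.67, 6.25 and 4.96 on the P7 arrays and 5.55, 5.47 and 5.74 on the P14 arrays. The P7 arrays spread widely (SD 0.64, against 0.23 at P2 and 0.14 at P14), so the time of any decline cannot be placed. The change from P2 to P7 was -0.73 ± 0.26 (adjusted p = 0.260), and ran from -1.04 without P7 replicate 2 to -0.40 without P7 replicate 3. From P7 to P14 it was -0.04 ± 0.26 (adjusted p = 0.973), and over the whole span -0.77 ± 0.26 (1.71-fold lower; adjusted p = 0.0758), called in 5 of 17 alternatives.

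Loxl1 was steadier. Its values were 6.30, 6.19 and 6.67 at P2, 6.26, 5.90 and 5.81 at P7 and 5.68, 5.67 and 5.95 at P14. All P14 arrays were below all P2 arrays, but P14 replicate 3 was above the lowest P7 arrays. The change from P2 to P14 was -0.62 ± 0.19 (1.54-fold lower) and lay at the threshold (adjusted p = 0.0503), with 7 of 17 alternatives calling it (adjusted p of 0.0112 to 0.171).

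The within-array difference of Lox less Loxl1 was -0.03 ± 0.08 (SD, n = 3) at P2, -0.36 ± 0.63 at P7 and -0.18 ± 0.04 at P14. An exact permutation test gave p = 0.568 (0.568 adjusted over the 2 pairs), so an unequal course of both enzymes was not shown. Without P7 replicate 2 the adjusted p was 0.00714 with an unchanged difference of -0.15 between P14 and P2, and this rests on the 2 P7 arrays left, at -0.59 and -0.84.

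**Figure D3:**
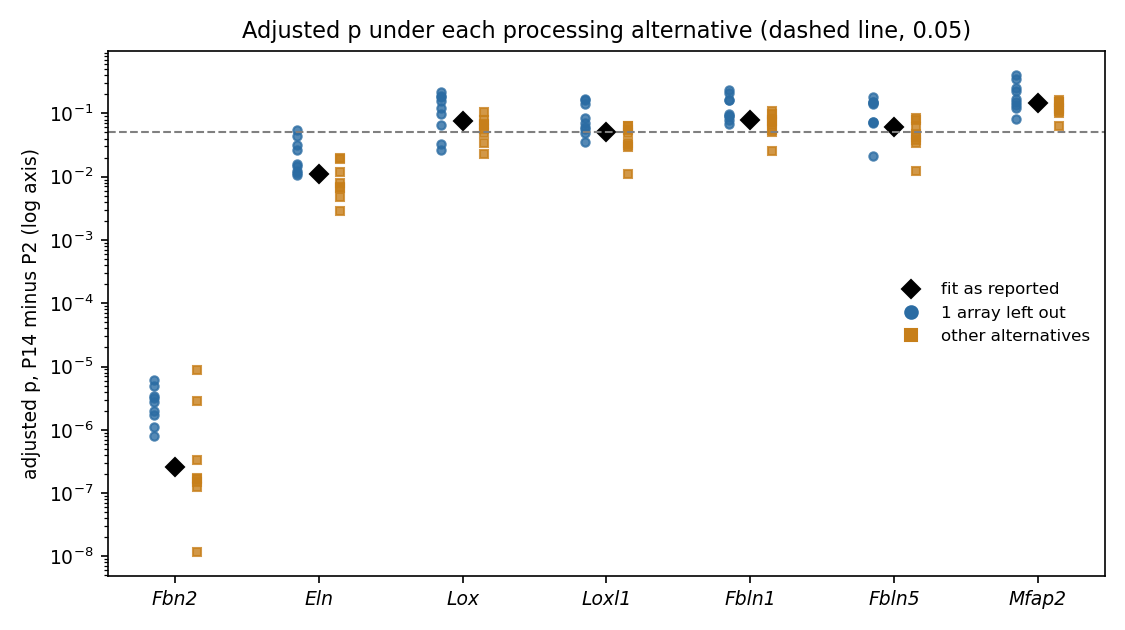
Adjusted p of each gene for P14 minus P2 on a log axis, for the fit as reported, for 9 fits that each leave out 1 array, and for 8 other alternatives, with a dashed line at 0.05. Every point of Fbn2 lies far below the line and 1 point of Eln lies above it, at 0.0556; those of Lox, Loxl1, Fbln1 and Fbln5 straddle it, and those of Mfap2 lie above it.

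The genes also shared deviations within an age. P2 replicate 3 was the highest of the P2 arrays for 6 of the 7 genes, all but Fbn2, with a median deviation of 0.28 from the mean of its age. P7 replicate 1 was the highest P7 array for 6 of the 7, all but Lox (median deviation 0.18), and P7 replicate 3 the lowest for 5. At P14 the deviations were small, with medians of -0.06, 0.04 and 0.02. On the same P2 replicate 3, the mean log2 value of fibroblast markers was 6.42, against 6.01 and 6.18 on the other P2 arrays, that of smooth muscle and pericyte markers 5.83 against 5.50 and 5.40, that of endothelial markers 6.13 against 5.50 and 5.68, and that of macrophage markers 5.58 against 5.18 and 4.97. Tendon markers (6.12 against 5.83 and 5.88) and nerve and Schwann markers (4.86 against 4.28 and 4.53) were also highest there. So were erythroid markers, at 5.79, while skeletal muscle, epidermis, and cartilage and bone markers were not. At P7 nerve and Schwann markers were likewise highest on replicate 1 (4.60 against 4.29 and 4.47). Fibroblast markers (6.38 against 6.31 and 6.26) and endothelial markers (6.18 against 5.82 and 5.94) were also highest on P7 replicate 1. The same held for skeletal muscle, epidermis, and cartilage and bone markers. Smooth muscle and pericyte, macrophage and erythroid markers were highest on P7 replicate 3, and tendon markers on P7 replicate 2. The part of these cell types in the deviation was not tested.

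Across ages the mean levels of fibroblast, smooth muscle, endothelial and tendon markers were higher at P14 than at P2, and those of macrophage and nerve markers were lower. Signs within the lists were mixed. The change from P2 to P14 was negative for 3 of 7 fibroblast, 4 of 9 smooth muscle and pericyte, 1 of 8 endothelial and 3 of 7 tendon markers. It was negative for 5 of 8 macrophage and 4 of 5 nerve and Schwann markers. In whole tissue, fewer cells of a type and less RNA per cell cannot be told apart. The mean of the 7 measured fibroblast markers, all above background, lay between 6.01 and 6.42 on P2 arrays, between 6.26 and 6.38 on P7 arrays and between 6.45 and 6.61 on P14 arrays. Of these 7 markers 2 rose (Dpep1 and Col15a1), 1 fell (Pdgfra, -0.63 ± 0.19, adjusted p = 0.0496, which kept the call without P2 replicate 3 and in no other fit that left out an array) and 4 were not called from P2 to P14. The 9 smooth muscle and pericyte markers were at 5.40 to 5.83 at P2 and 5.78 to 5.87 at P14. Of these 9, Rgs5 (7.85 to 9.83) and Acta2 (8.71 to 9.57) were called higher and 7 were not called. By limma's unadjusted p under 0.05, 1 of the 9 was lower and 3 were higher, so the higher mean does not describe the list as a whole. The call of Col15a1 was lost without P2 replicate 1 (adjusted p = 0.0523) and that of Acta2 without P14 replicate 2 (0.0557). Endothelial markers were at 5.50 to 6.13 and 6.15 to 6.28, with 1 of 8 called higher by limma (5 higher at an unadjusted p under 0.05, median 0.50). Tendon markers were at 5.83 to 6.12 and 5.93 to 6.20, with 0 of 7 called by limma (2 at an unadjusted p under 0.05). Macrophage markers had age means of 5.24, 5.01 and 5.10, and nerve and Schwann markers of 4.55, 4.45 and 4.36. From P2 to P14 limma called 0 of the 8 macrophage markers (1 at an unadjusted p under 0.05; median -0.13) and 0 of the 5 measured nerve and Schwann markers (0 at an unadjusted p under 0.05; median -0.27). The part of these cells in the lower values of the 7 genes was not tested.

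Markers of cartilage and bone had lower means at each later age. Their mean lay between 4.24 and 5.59 on P2 arrays, between 3.74 and 4.87 on P7 arrays and between 3.56 and 3.60 on P14 arrays. Of 8 markers, all above background at some age, 2 fell and 6 were not called from P2 to P14. The 2 were Ibsp of bone matrix (-4.44 ± 0.77, adjusted p = 0.00184) and Acan of cartilage (-1.67 ± 0.36, adjusted p = 0.00814). Their P14 means of 2.40 and 3.17 are under the background level of 3.23, so the size of these falls is not measured well. The P2 arrays also spread widely, at 8.08, 6.54 and 5.90 for Ibsp and 4.41, 5.88 and 4.24 for Acan. Among the P2 arrays, replicate 2 had the highest mean of the 8 markers (5.59) and the lowest value of 4 of the 7 genes. Replicate 3 had the lowest mean of the markers (4.24) and the highest value of 6 of the 7 genes. Among the P7 arrays the mean of the markers ran the same way as most of the 7 genes, at 4.87 on replicate 1, 4.76 on replicate 2 and 3.74 on replicate 3. The 2 measured erythroid markers had means of up to 5.79 at P2 and up to 4.22 at P14. From P2 to P14 limma called neither, and 2 were lower at an unadjusted p under 0.05. The part of these tissues in the lower values of the 7 genes was not tested. Skeletal muscle markers had the values of a muscle sample (means of 9.28 to 9.74 on P2 arrays and 10.29 to 10.30 on P14 arrays), with 5 of 8 rising from P2 to P14. Of the 7 measured epidermis markers 3 were at or below background at every age (Krt14, Krt15 and Dsg3).

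**Figure D4:**
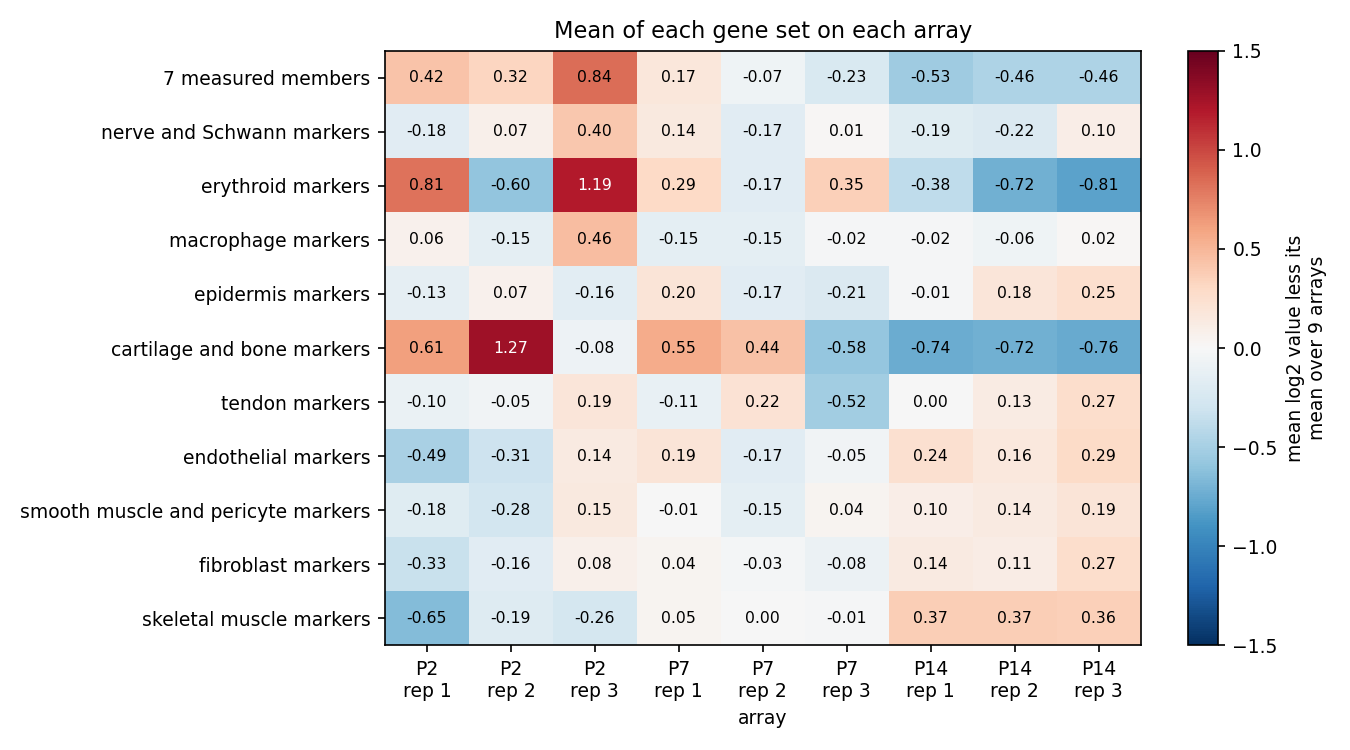
Mean log2 value of the 7 measured genes and of each marker list on each array, less its own mean over the 9 arrays. The 7 genes run from 0.84 on P2 replicate 3 to -0.53 on P14 replicate 1. Cartilage and bone markers (-0.76 to -0.72 at P14) and the 2 erythroid markers (-0.81 to -0.38 at P14) also end low. Fibroblast, smooth muscle and endothelial markers end above their means.

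Other genes of the pathway were read from 4 lists. The first holds 18 microfibril and elastic fibre accessory genes, all measured. From P2 to P14 3 of them fell, 0 rose (3 higher at an unadjusted p under 0.05) and 15 were not called by limma, with a median of -0.13. The 3 were Adamts6, a metalloprotease of the family that acts on microfibrils (-0.90 ± 0.21, adjusted p = 0.0109), Emilin2, a glycoprotein of elastin interfaces (-0.76 ± 0.21, adjusted p = 0.0302), and Thsd4, which promotes fibrillin assembly (-0.62 ± 0.19, adjusted p = 0.0478). Each of these calls was lost in some of the 9 fits that left out 1 array. In those fits the change of Thsd4 stayed at -0.64 to -0.59, and 2 of them kept its call. The call of Emilin2 was also lost with these ages alone (adjusted p = 0.0519) and that of Thsd4 with the replicate block (0.0598). The list had 0 falls without P2 replicate 1 or P14 replicate 2 and 1 without P2 replicate 3, P14 replicate 1 or P14 replicate 3, and with dim genes left out 2 of the list rose. From P2 to P7 and from P7 to P14 0 of the 18 were called, with 5 and 1 at an unadjusted p under 0.05. The microfibril proteins Mfap4 (0.17 ± 0.20) and Mfap5 (-0.17 ± 0.20), the fibulin Fbln2 (-0.09 ± 0.18) and the TGF-beta binding Ltbp4 (0.37 ± 0.18), which assists elastin assembly, were not called from P2 to P14; these 4 were chosen after their values were seen.

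In the crosslinking list, 2 of 12 measured genes fell from P2 to P14, 0 rose (1 higher at an unadjusted p under 0.05) and the median was -0.24. Periostin (Postn), a matricellular protein that assists the activation of lysyl oxidase through Bmp1, was at 10.52, 10.41 and 10.46 at P2, 9.87, 10.04 and 9.71 at P7 and 8.54, 8.52 and 8.61 at P14. No ages overlapped. It fell by 3.75-fold over the span (log2 -1.91 ± 0.16, adjusted p = 3.70e-06) and by 2.48-fold from P7 to P14 (-1.31 ± 0.16, adjusted p = 2.80e-04), and both calls held with any array left out. From P2 to P7 its change of -0.60 ± 0.16 was not called (adjusted p = 0.125).

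Plod2 hydroxylates the telopeptide lysines of collagen from which stable crosslinks form. Its values were 6.47, 6.27 and 5.75 at P2, 5.46, 5.27 and 5.11 at P7 and 4.64, 4.45 and 4.43 at P14. The ages again did not overlap, and it was 3.16-fold lower at P14 than at P2 (-1.66 ± 0.20, adjusted p = 9.51e-05), a call kept with any array left out. Neither interval alone was called (-0.89 ± 0.20, adjusted p = 0.0702, and -0.77 ± 0.20, adjusted p = 0.0584). The falls in the list from P7 to P14 were 2 in place of 1 with cyclic loess, without dim genes, with a trended prior, with array weights, with the replicate block, with these ages alone, and without P2 replicate 1 or P2 replicate 3. From P2 to P7 they were 2 in place of 0 with the trended prior, and 1 without dim genes or without P2 replicate 3. The related Plod1 was at 0.63 ± 0.22 (adjusted p = 0.0807), the copper pump Atp7a that loads lysyl oxidases at -0.52 ± 0.18 (0.0788), and Loxl3 and Loxl4 at -0.42 ± 0.24 and -0.21 ± 0.23, none of them called; these 4 were chosen after their values were seen. From P2 to P7 0 of the 12 were called by limma (2 at an unadjusted p under 0.05), and without P2 replicate 2 the falls over the whole span were 4.

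Of 11 genes for the breakdown of elastin and matrix, 5 fell and 1 rose from P2 to P14, with a median of -0.46. The collagen and elastin protease Ctsk was at 7.19, 5.65 and 6.39 at P2, 6.37, 5.53 and 4.64 at P7 and 4.48, 4.95 and 4.73 at P14 (3.23-fold lower, log2 -1.69 ± 0.39, adjusted p = 0.0119). Mmp9 was at 7.36, 4.47 and 5.67 at P2 and 3.57, 3.55 and 3.64 at P14 (4.75-fold lower, -2.25 ± 0.63, adjusted p = 0.0324; 0.188 with a trended prior). Both varied several-fold among the P2 arrays, where P2 replicate 1 was highest, and both are known as enzymes of osteoclasts. The mean of the cartilage and bone markers was lower at P14 than at P2, with 2 of 8 called lower and 6 not called. The part of bone and cartilage in these values was not tested. The membrane protease Mmp14 was 1.96-fold lower (-0.97 ± 0.25, adjusted p = 0.0195).

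Of the 4 inhibitors of these proteases, 1 fell, 1 rose and 2 were not called from P2 to P14. Timp1 fell from 3.89 to 2.93, under the background level (adjusted p = 0.0191), while Timp4 had means of 3.57, 3.19 and 4.37 at the 3 ages and rose from P7 to P14 (1.17 ± 0.22, adjusted p = 0.0121). The P7 mean of Timp4 is also under the background level, so the size of that rise is not measured well. Timp2 (0.36 ± 0.18, adjusted p = 0.234) and Timp3 (0.51 ± 0.18, adjusted p = 0.0911) were not called from P2 to P14. The neutrophil elastase gene Elane (-0.65 ± 0.20, adjusted p = 0.0484) was the remaining fall, with a P14 mean of 3.01 under background and a call kept in 1 of 9 fits that left out an array, and Timp4 was the rise from P2 to P14 (0.80 ± 0.22, adjusted p = 0.0327); the values of Elane, Timp2, Timp3 and this one of Timp4 were chosen after they were seen. This list lost calls in fits that left out 1 array. It had 0 falls without P2 replicate 1 or P14 replicate 1, 1 without P2 replicate 3 or P14 replicate 3 and 2 without P14 replicate 2, and the rise of Timp4 from P7 to P14 was lost, with an adjusted p of up to 0.0736, without P7 replicate 3, P14 replicate 1 or P14 replicate 3. From P2 to P14 it was lost without P2 replicate 1, P2 replicate 3 or any P14 array.

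Microfibrils also hold latent TGF-beta. Of 14 measured genes of that list, 3 rose and 1 fell from P2 to P14, with a median of -0.11. The change was negative for 9 of the 14, and by limma's unadjusted p under 0.05, 5 were lower and 3 higher. With cyclic loess scaling 3 fell. The count of falls was 2 with arrays centred on their medians, without dim genes, with the trended prior, and without P2 replicate 2 or P14 replicate 3. It was 0 without P2 replicate 1 or P14 replicate 2. Itgb6, a subunit of an integrin that frees TGF-beta, was at 4.54, 4.78 and 5.16 at P2, 5.33, 5.60 and 5.40 at P7 and 5.70, 5.68 and 5.91 at P14 (1.92-fold higher, log2 0.94 ± 0.19, adjusted p = 0.00472; kept with any array left out). The TGF-beta effector Smad3 was 1.69-fold higher (0.76 ± 0.18, adjusted p = 0.0142; lost without P14 replicate 1). Ccn2, a target of the pathway, was 1.61-fold higher (0.68 ± 0.16, adjusted p = 0.0107; lost without P14 replicate 3, 0.0512) and rose 1.74-fold from P7 to P14 (0.80 ± 0.16, adjusted p = 0.0129; lost without P7 replicate 3 or any P14 array, up to 0.0758, and with the mean of all its probe sets, where it was 0.43 with an adjusted p of 0.189). Thbs1, an activator of latent TGF-beta, was 2.04-fold lower at P14 than at P2 (-1.03 ± 0.23, adjusted p = 0.0107; lost when P2 replicate 1 or P14 replicate 2 was left out, up to 0.0644). The ligands Tgfb1 (-0.46 ± 0.21), Tgfb2 (-0.09 ± 0.20) and Tgfb3 (-0.46 ± 0.19) were not called; these 3 were chosen after their values were seen.

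**Figure D5:**
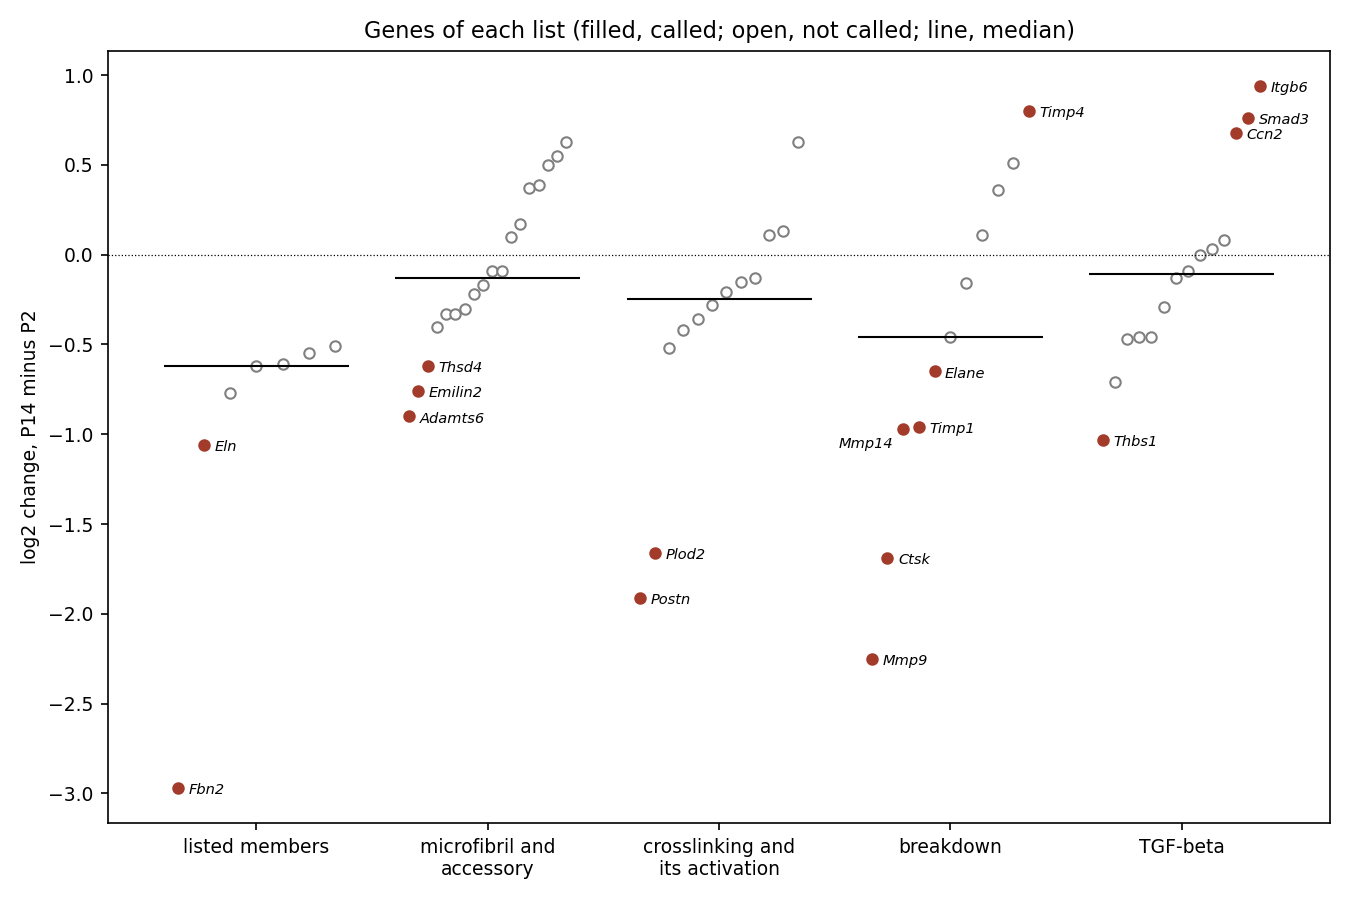
Log2 change from P2 to P14 of the 7 measured genes and of the genes of the 4 pathway lists, with called genes filled and named, and a line at the median of each list. Fbn2 has the most negative value of all genes shown (-2.97), and the medians of the lists run from -0.46 to -0.11.

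The genes most like Fbn2 over the 9 arrays, by Pearson's r of log2 values among the 11089 other genes brighter than the median gene, were Ralgps2 (0.991), a Ral exchange factor, Ncam1 (0.990), the neural cell adhesion molecule of young muscle, Farp1 (0.990), and Maged1 and the imprinted Peg10 (0.985 each). Their changes from P2 to P14 were smaller, from -1.55 for Ncam1 to -1.22 for Farp1. The genes most like Eln were Knstrn (0.976), Nuf2 (0.970) and Kif18b (0.968), which serve the mitotic spindle, the chemokine Ccl7 (0.970) and the DNA primase subunit Prim2 (0.965). Among the other measured genes of the group, r with Eln was 0.927 for Fbln1, 0.907 for Fbln5, 0.898 for Loxl1, 0.894 for Mfap2, 0.823 for Fbn2 and 0.586 for Lox. These values describe arrays that share an age in threes and are not tests.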

How the data were processed

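Total RNA of 9 hindlimb muscle samples was labelled with biotin and hybridised to Affymetrix arrays, per the labels' protocols. The authors deposited 1 log2 intensity for each of 41345 probe sets, and RMA and Partek are named, with no version, in the submitters' processing notes, and no genome build was found in the sources used. The log2 scale is taken from RMA and the range of values (0.206 to 13.5). RMA pulls arrays to a common distribution, so a shift shared by most genes would not be seen. Probe sets with 1 symbol (23521) were kept, updated through Entrez numbers to RefSeq (23328 matched), and the brightest per gene was used, giving 22180 genes with no filter on dim values. Array medians were 3.29 to 3.36, and replicates correlated across genes at 0.953 to 0.984.

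limma 3.58.1 in R 4.3.3 fitted 1 mean per age over all 9 arrays with empirical Bayes moderation. Tests were two-sided, with Benjamini-Hochberg adjustment over the 22180 genes, and an adjusted p under 0.05 was called. Since separate animals are not stated, a p-value covers only the spread among the arrays, some of it possibly technical; 3 arrays per age limit the precision. Members and gene lists were chosen with earlier results of these data known, so no list gives independent support. Named genes are the 7 measured members, up to 4 called genes with the smallest adjusted p per list and pair of ages, and the 5 genes most like Fbn2 and Eln; others are marked. The script was tested on simulated data.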

Additional observations from a re-analysis of the deposited data

How the results depend on the processing

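The calls of Fbn2 kept direction and side of the threshold in all 17 alternatives for each pair of ages. From P2 to P14 2 of the 7 genes were called as reported. Centring arrays on medians gave 4, cyclic loess 6, leaving out dim genes 5, a trended and robust prior 4, and leaving out single arrays 1 to 4 (1 without P14 replicate 1, 4 without P2 replicate 2). For any change over the ages the count of 2 became 4 with cyclic loess and 1 with the replicate block, and 1 to 3 with single arrays left out; the cause was not tested. Replicate numbers did not pair the samples (correlations of deviations between same-numbered arrays of -0.029 to 0.057), and with the replicate block 2 genes were still called from P2 to P14. Differences near 0 reversed. Lox from P7 to P14 was 0.02 with array weights, 0.27 without P7 replicate 2 and 0.02 without P14 replicate 2 (range -0.37 to 0.27 with single arrays left out), and Mfap2 from P2 to P7 was 0.08 without P2 replicate 3 and 0.01 without P7 replicate 2 (range -0.40 to 0.08). Counts over the pathway lists under these alternatives were added after seeing the data. The within-array change of Lox less Loxl1 was -0.15, and -0.18 to -0.11 with single arrays left out; that of Eln less Mfap2 was -0.45, and -0.52 to -0.35. Over all genes, cyclic loess called 1318 lower and 1216 higher from P2 to P14 (52.0% lower, against 39.9%), and 47.0% lower against 29.0% from P7 to P14. From P2 to P7 the 73 genes called became 171 without dim genes, 159 with the trended prior, 12 with these ages alone and 11 to 206 with single arrays left out. From P7 to P14 the 538 became 1221 with array weights, 1051 with these ages alone and 214 to 794 with single arrays left out. With single arrays left out, the 2447 from P2 to P14 became 1373 to 2611, the 1827 for any change 845 to 2139, and the 43 for the difference between intervals 18 to 44.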
